A study of Drosophila melanogaster with 10 samples.

Results

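Aminoacyl-tRNA synthetases are the enzymes that join each amino acid to its transfer RNA (tRNA), and their genes were compared between control midguts and midguts in which an RNAi transgene against the nuclear receptor dHNF4 was driven. The members were the genes whose deposited symbol is an amino acid abbreviation, or a pair of them, followed by RS, with -m added for a mitochondrial enzyme. This rule took 33 of the 14310 genes in the table of length-corrected transcript abundance (TPM), 18 cytosolic and 15 mitochondrial, and used no measured value. The subunits of cytosolic phenylalanyl-tRNA synthetase have symbols of another form and were described apart.

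Each synthetase recognises an amino acid and the tRNAs that decode it, and the charged tRNA is then carried to the ribosome by an elongation factor. Animal cells translate in the cytosol and also inside mitochondria, where a small genome encodes respiratory chain subunits, and most mitochondrial synthetases are nuclear-encoded enzymes separate from the cytosolic ones. Uncharged tRNA activates the kinase Gcn2, so these enzymes also stand upstream of the response to amino acid shortage.

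All flies were adult males, dissected 7 days after eclosion, kept at 25 °C with 12 h of light on a diet of yeast only, and each library was made from 20 pooled midguts. The 5 control libraries came from w1118/Y ; ; UAS-dHNF4 RNAi NIG9310-R2/+ flies, which carry the RNAi transgene with no driver. The 5 libraries labelled dHNF4 RNAi came from w/Y flies with mex-GAL4/+ and the same UAS-dHNF4 RNAi NIG9310-R2/+ transgene, which this driver expresses in enterocytes. No group with the driver alone was analysed here, and the X chromosome is written w1118 in controls and w in the RNAi group. The driver, the RNAi and any difference in background thus cannot be told apart in this comparison. HNF4 proteins are nuclear receptors that control metabolic genes in the gut and in other tissues.

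Transcript levels of the targeted gene, Hnf4, were 36.6, 45.8, 41.8, 36.3 and 33.5 TPM in controls 1 to 5. In the libraries labelled dHNF4 RNAi they were 42.1, 46.1, 47.4, 44.7 and 48.0 TPM. The groups overlapped, and Hnf4 TPM was higher in the RNAi group by 0.24 on the log2(TPM + 1) scale (limma, Benjamini-Hochberg adjusted p = 0.01992). After median-of-ratios scaling, which sets the median gene of the libraries level, the difference was -0.35 (adjusted p = 0.000815), so the direction of the targeted gene depended on the scale. The median gene itself was 0.55 higher in the RNAi group in TPM and 0.01 higher after that scaling. The differences below are in TPM unless they are named as rescaled.

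In TPM, all 33 synthetase genes rose in the libraries labelled dHNF4 RNAi, none fell, and no member's groups overlapped. The background was high: of the 8784 genes tested 83.2% were called, 66.9% higher and 16.3% lower, and 60.3% were higher with no overlap. After median-of-ratios scaling 18 members (54.5%) were called higher, 2 (6.06%) lower and 13 were not called, where 71.4% of all genes tested were called, 35.6% higher and 35.8% lower. On that scale 14 members were higher with no overlap between groups and TyrRS alone was lower with none, against 28.6% and 29.4% of all genes tested. The median log2 difference was 0.68 for the cytosolic and 0.80 for the mitochondrial genes in TPM, with a pseudocount of 1. The same medians were 0.10 and 0.32 after rescaling. In TPM the order of the 2 medians depended on the pseudocount. With a pseudocount of 0.1 the cytosolic and mitochondrial medians were 0.70 and 0.95, and with 5 they were 0.62 and 0.56. In TPM, 28 of the 33 members lay above the median of all genes tested. On log2(TPM + 1), 4 members, GlyRS, LysRS, MetRS-m and TrpRS-m, were called with a difference of at least 1, as were 16.5% of all genes tested. The ratio of the group means in TPM, without the pseudocount, was at least 2 for 9 members, these 4 and ThrRS, AsnRS-m, GluRS-m, LeuRS-m and IleRS-m. No share of all genes tested is given at that measure, so these 9 cannot be set against the background.

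**Figure D1:**
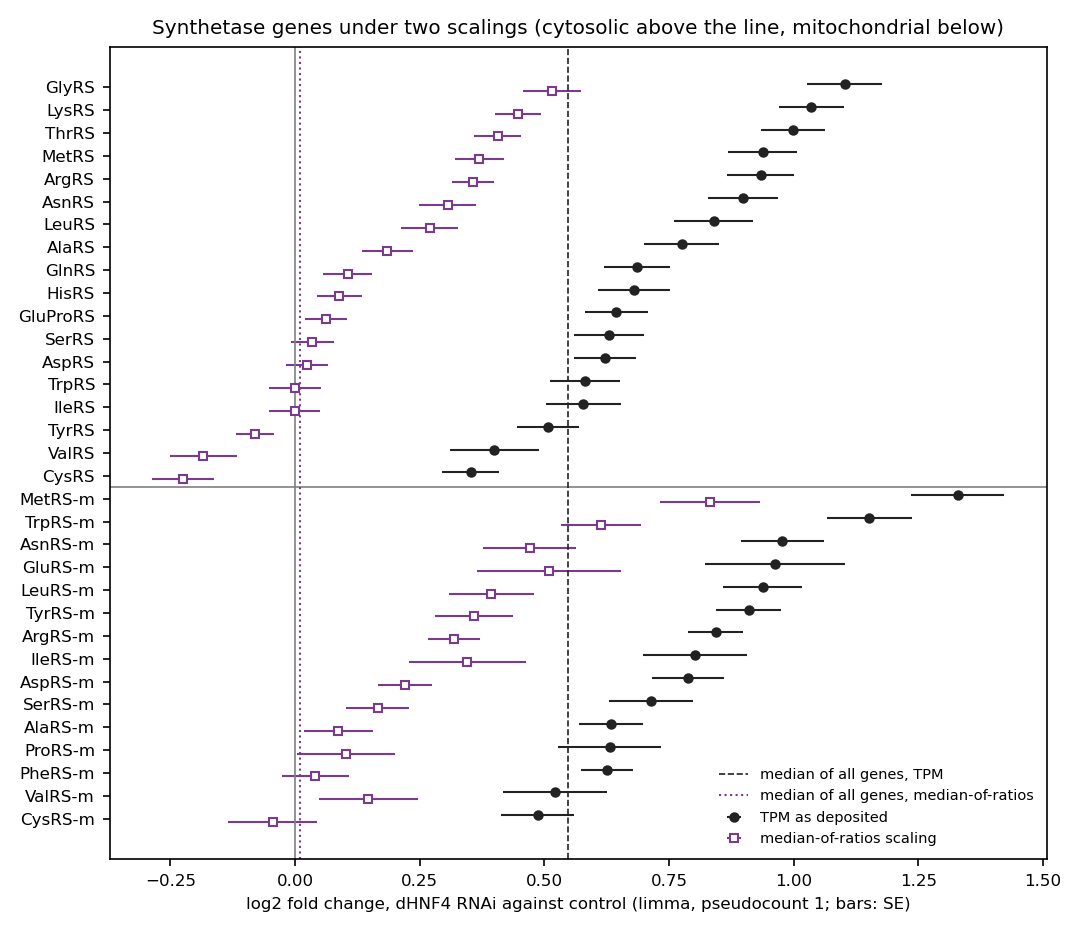
The plot shows the log2 difference, dHNF4 RNAi minus control, of each of the 33 synthetase genes on log2(TPM + 1) and after median-of-ratios scaling. All 33 lie above 0 in TPM, while after rescaling 5 lie below 0, and ValRS and CysRS are the 2 called lower.

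TPM is corrected for transcript length, so levels can be set side by side between genes. Cytosolic genes averaged 18.9 TPM (MetRS) to 216 TPM (AspRS) over the 10 libraries, with a median of 39.2 TPM. Mitochondrial genes averaged 1.76 TPM (ValRS-m) to 36.0 TPM (PheRS-m), with a median of 7.73 TPM. The order of the genes by mean level was much alike in both groups, with a Spearman rho of 0.97 across the 18 cytosolic and 0.90 across the 15 mitochondrial genes, as a description over genes measured in the same libraries. On log2(TPM + 1) the size of the difference had little relation to the level, with a rho of 0.082 across cytosolic and -0.164 across mitochondrial genes. The pseudocount lowers the difference most in the least abundant genes, and ratios of means were not ranked against the level.

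**Figure D2:**
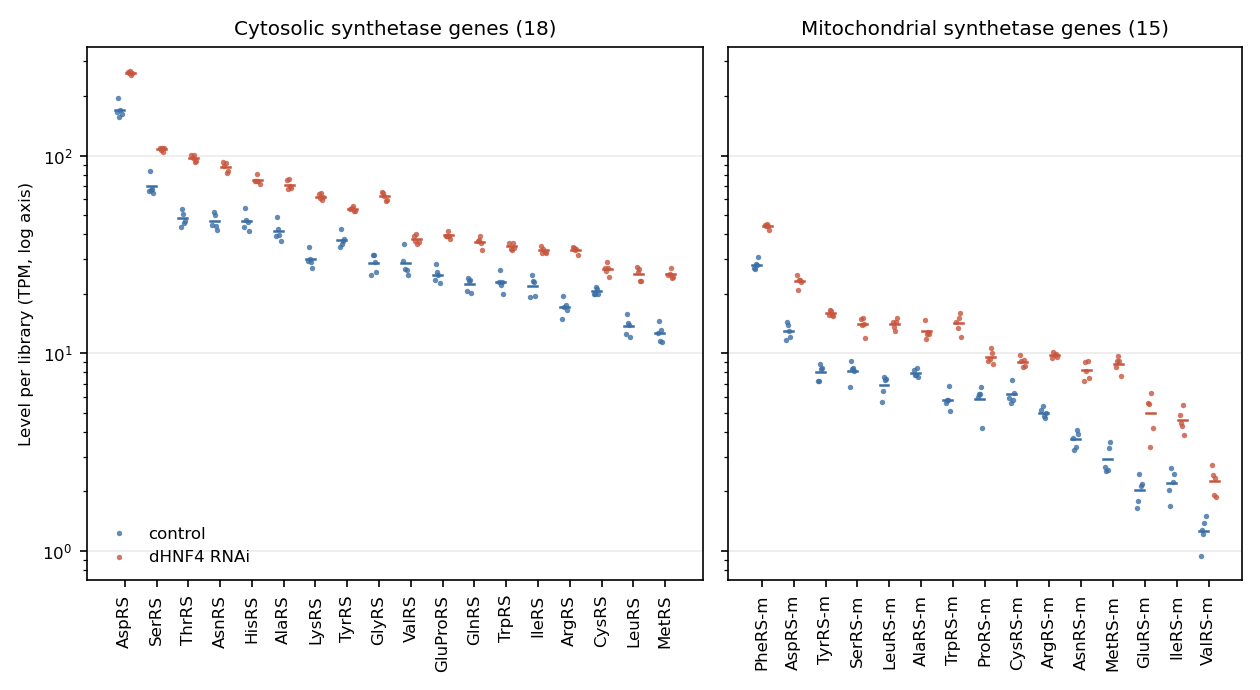
The plot shows the TPM of each of the 33 synthetase genes in every library on a log axis, with control and dHNF4 RNAi libraries in separate colours. AspRS is the most abundant member and ValRS-m the least, and the libraries of the 2 groups do not overlap for any member.

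Among cytosolic enzymes the differences ran from 1.10 on the log2 scale for GlyRS to 0.35 for CysRS. GlyRS, which charges glycine tRNA (FBgn0027088, 3L, 15095142 to 15097686, plus strand), was at 25.0, 31.6, 31.5, 28.8 and 25.8 TPM in controls 1 to 5. In the RNAi libraries it was at 65.1, 64.4, 62.8, 59.1 and 59.4 TPM. The lowest RNAi library lay well above the highest control, and the mean rose from 28.5 ± 3.10 to 62.2 ± 2.80 TPM (SD, n = 5 libraries per group here and below). The log2 difference was 1.10 with a standard error (SE) of 0.075 (adjusted p = 1.536e-07), and GlyRS stayed higher after rescaling by 0.52.

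LysRS, the lysine enzyme (X, 9606363 to 9608884, minus strand), was at 29.3, 34.3, 29.9, 28.8 and 26.9 TPM in the controls. Its RNAi libraries held 63.7, 60.9, 64.6, 59.4 and 61.6 TPM, again with no overlap. The log2 difference was 1.04 (SE 0.065, adjusted p = 9.57e-08), and 0.45 after rescaling. In mammals, GlyRS and LysRS each come from a single gene that supplies both the cytosol and mitochondria, and in this table neither has a -m counterpart.

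ThrRS, the threonine enzyme, was at 43.7, 54.0, 50.5, 45.5 and 46.6 TPM in the controls and at 100.2, 97.1, 100.6, 92.6 and 93.7 TPM in the RNAi libraries. All RNAi libraries thus lay above all controls, with a log2 difference of 1.00 (SE 0.065, adjusted p = 1.096e-07). MetRS, which charges both initiator and elongator methionine tRNAs in the cytosol, was at 12.7, 14.5, 11.6, 13.1 and 11.5 TPM in the controls. Its RNAi libraries held 25.0, 25.2, 27.0, 24.0 and 24.5 TPM, a narrow range above every control, with a log2 difference of 0.94 (adjusted p = 2.599e-07). The rescaled differences were 0.41 for ThrRS and 0.37 for MetRS, and both remained called. ArgRS, AsnRS, LeuRS and AlaRS completed the 8 cytosolic genes called higher on both scales, with TPM differences of 0.93, 0.90, 0.84 and 0.78 and rescaled differences of 0.36, 0.31, 0.27 and 0.19.

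The most abundant member, AspRS, the aspartate enzyme, stood close to the median gene. It was at 166.7, 195.7, 157.2, 169.1 and 162.3 TPM in the controls and at 263.6, 260.5, 267.0, 255.4 and 262.3 TPM in the RNAi libraries. The groups did not overlap in TPM and the log2 difference was 0.62 (adjusted p = 2.268e-06), but after rescaling it was 0.02 (adjusted p = 0.634). GluProRS, a fused enzyme that charges glutamate and proline tRNAs, was at 23.4, 28.2, 25.7, 24.8 and 22.7 TPM in the controls. Its RNAi libraries held 39.3, 39.3, 41.5, 39.3 and 38.0 TPM, above every control, with a log2 difference of 0.64 (SE 0.063, adjusted p = 1.997e-06). After rescaling its difference was 0.06 (adjusted p = 0.205). GlnRS, HisRS, SerRS, TrpRS and IleRS were likewise higher in TPM, by 0.58 to 0.69, and not called after rescaling.

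At the low end, ValRS and CysRS rose in TPM by less than the median gene and were called lower after rescaling. ValRS, the valine enzyme (2R, 13198850 to 13202709, plus strand), was at 29.2, 35.6, 26.7, 26.3 and 24.9 TPM in the controls and at 39.4, 36.9, 40.2, 35.6 and 36.5 TPM in the RNAi libraries. The lowest RNAi library exceeded control 2 only narrowly, and the log2 difference was 0.40 (SE 0.089, adjusted p = 0.001357). After rescaling it was -0.18 (adjusted p = 0.03005). That call was lost when any of controls 1 and 2 or RNAi libraries 2, 4 and 5 was left out, with adjusted p up to 0.07748.

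CysRS, the cysteine enzyme (2R, 16143147 to 16145906, plus strand), was at 20.0, 20.1, 21.7, 21.1 and 20.0 TPM in the controls. Its RNAi libraries held 27.0, 26.0, 28.8, 26.9 and 24.3 TPM, above every control. The log2 difference was 0.35 (SE 0.057, adjusted p = 0.00012), and -0.22 after rescaling (adjusted p = 0.007443), where it stayed called with each library left out. TyrRS, IleRS and CysRS-m also changed sign with the scale, at -0.08, -0.0011 and -0.04 after rescaling, none of them called.

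Among mitochondrial enzymes MetRS-m had the largest difference of the whole family. MetRS-m, which charges the mitochondrial methionine tRNA used for both initiation and elongation (FBgn0027083, 3R, 14249043 to 14259991, minus strand), was at 2.65, 2.54, 2.56, 3.31 and 3.55 TPM in the controls. In the RNAi libraries it was at 8.52, 9.11, 9.70, 9.14 and 7.65 TPM. The ranges were far apart, and the mean rose from 2.92 ± 0.474 to 8.82 ± 0.779 TPM, a ratio of 3.02. The log2 difference on log2(TPM + 1), which understates the change of such a low gene, was 1.33 (SE 0.094, adjusted p = 1.874e-07), and 0.83 after rescaling. The annotated gene CG43179 overlaps MetRS-m over 823 bases.

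TrpRS-m, the mitochondrial tryptophan enzyme (3L, 17849727 to 17852453, plus strand), was at 5.61, 5.81, 5.81, 6.80 and 5.12 TPM in the controls. Its RNAi libraries held 14.3, 13.4, 15.1, 16.0 and 12.1 TPM, with no overlap. The log2 difference was 1.15 (SE 0.086, adjusted p = 2.734e-07), and 0.61 after rescaling. AsnRS-m, the asparagine enzyme of mitochondria, was at 3.73, 3.24, 3.35, 4.10 and 3.92 TPM in the controls and at 7.28, 8.99, 8.12, 9.12 and 7.47 TPM in the RNAi libraries. Every RNAi library was above every control, with a log2 difference of 0.98 (adjusted p = 6.959e-07), and 0.47 after rescaling.

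GluRS-m, the glutamate enzyme of mitochondria, varied most of all members among the RNAi libraries relative to its mean, at 5.60, 5.51, 3.36, 6.28 and 4.18 TPM. Its controls were at 1.65, 1.78, 2.44, 2.13 and 2.17 TPM, all below the lowest RNAi library. The log2 difference was 0.96 (SE 0.141, adjusted p = 5.284e-05), and 0.51 after rescaling (adjusted p = 0.008234). LeuRS-m, TyrRS-m, ArgRS-m, IleRS-m, AspRS-m and SerRS-m made up the 10 mitochondrial genes called higher on both scales, with TPM differences of 0.71 to 0.94. SerRS-m was the weakest of these after rescaling, at 0.17 (adjusted p = 0.0349), and with single libraries left out its adjusted p reached 0.08374. The call of IleRS-m after rescaling was lost without RNAi library 4 (adjusted p = 0.05037).

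The smallest mitochondrial differences on log2(TPM + 1) were those of CysRS-m and ValRS-m, although the ratio of means of ValRS-m, 1.78, was above that of PheRS-m, AlaRS-m and ProRS-m. CysRS-m, the cysteine enzyme, was at 5.97, 5.61, 7.30, 5.83 and 6.31 TPM in the controls and at 9.85, 9.19, 8.50, 9.23 and 8.60 TPM in the RNAi libraries. Its groups did not overlap, with a log2 difference of 0.49 (SE 0.074, adjusted p = 7.047e-05). ValRS-m, the least abundant member, was at 0.942, 1.28, 1.22, 1.38 and 1.504 TPM in the controls and at 2.74, 2.41, 1.92, 2.34 and 1.87 TPM in the RNAi libraries. At these low levels the pseudocount weighs most, and the ranges stood only slightly apart, with a log2 difference of 0.52 (SE 0.105, adjusted p = 0.0006244). PheRS-m, the most abundant mitochondrial enzyme, rose from 28.1 ± 1.53 to 43.9 ± 1.06 TPM, near the median gene, with a rescaled difference of 0.04. Along with these 3 genes, AlaRS-m and ProRS-m were not called after rescaling.

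Ratios between genes of the same library do not depend on the scaling. The summed TPM of the 18 cytosolic genes was 6.66, 7.67, 6.28, 6.25 and 6.02 times that of the 15 mitochondrial genes in controls 1 to 5. In the RNAi libraries the ratio was 5.96, 6.03, 6.16, 5.63 and 6.19. The groups overlapped on control 5, and control 2 was the highest library. The cytosolic sum itself went from 703 ± 60.2 to 1170 ± 33.8 TPM and the mitochondrial sum from 107 ± 4.52 to 195 ± 7.14 TPM.

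For 14 mitochondrial genes the table also holds the cytosolic enzyme for the same amino acid, GluProRS serving for both GluRS-m and ProRS-m. The cytosolic gene was above the mitochondrial gene in every library for all 14 pairs. In 3 pairs the ratio was lower in the RNAi libraries with no overlap, in none was it higher, and in 11 the groups overlapped. Among all 270 ratios of any cytosolic to any mitochondrial member, 28.1% were lower and 5.93% higher without overlap. The count of matched pairs with a lower ratio was 5 of 14 when RNAi library 3 or 5 was left out.

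TrpRS was 4.09, 4.56, 3.82, 3.39 and 3.92 times as abundant as TrpRS-m in the controls, and 2.52, 2.53, 2.20, 2.26 and 2.83 times in the RNAi libraries. The ratio of MetRS to MetRS-m was 4.79, 5.73, 4.51, 3.96 and 3.23 in the controls and 2.94, 2.76, 2.78, 2.63 and 3.20 in the RNAi libraries, with only a narrow gap between control 5 and RNAi library 5. For the tyrosine enzymes, TyrRS to TyrRS-m, the ratio was 4.75, 5.90, 4.06, 4.42 and 4.47 in the controls and 3.41, 3.30, 3.43, 3.34 and 3.38 in the RNAi libraries. In each of these pairs the mitochondrial gene had the larger log2 difference. The ratio of the arginine pair had means of 3.41 ± 0.328 in controls and 3.42 ± 0.135 in RNAi libraries, and the alanine pair had the highest relative value, 1.06 times that of controls, with overlapping groups.

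**Figure D3:**
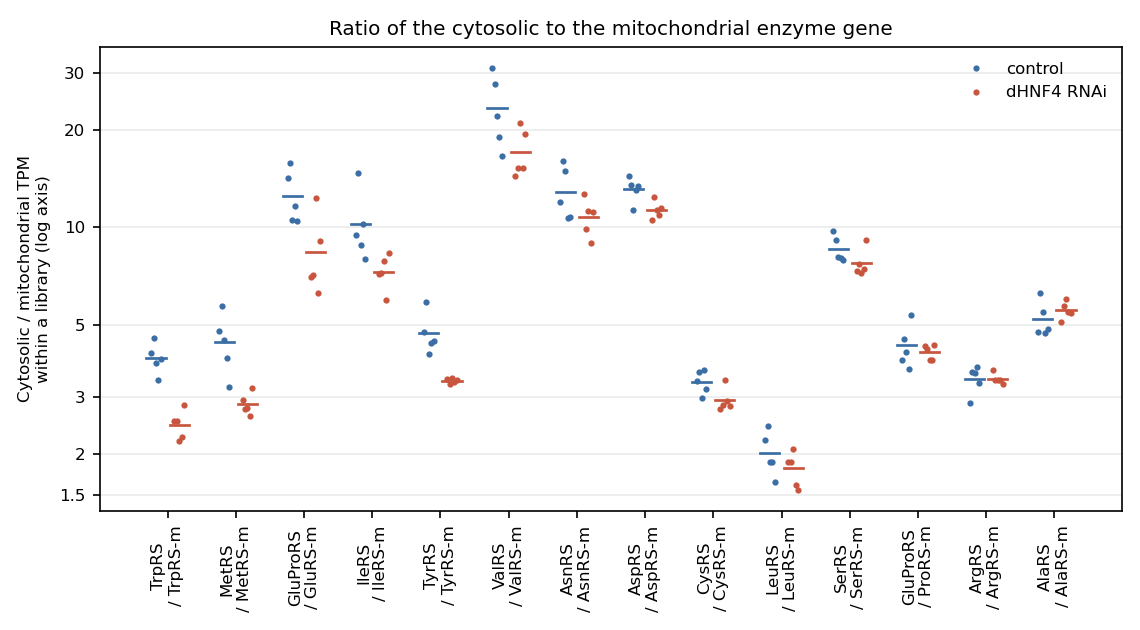
The plot shows the within-library ratio of the cytosolic to the mitochondrial gene for the 14 amino acid pairs in every library, on a log axis. The tryptophan, methionine and tyrosine pairs are lower in all 5 dHNF4 RNAi libraries than in any control, and the other 11 pairs overlap.

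Measured as a share of the summed TPM of all 33 genes, 10 members took a larger and 6 a smaller share of the family in the RNAi libraries with no overlap, while 17 overlapped. Over all genes tested, TPM divided by that same sum was higher without overlap for 18.7% and lower for 36.4%. GlyRS went from 3.52% ± 0.244 to 4.55% ± 0.141 of the family's transcripts and CysRS from 2.55% ± 0.198 to 1.95% ± 0.0842. AspRS held the largest share in both groups, 21.0% ± 0.899 in controls and 19.2% ± 0.378 in RNAi libraries, with overlap. The other 5 genes with a smaller share were GluProRS, SerRS, IleRS, TyrRS and ValRS, all cytosolic.

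Synthetases fall into classes I and II by the fold of the catalytic domain. The 9 cytosolic class I genes had a median TPM difference of 0.58, and after rescaling 3 were called higher and 2 lower with a median of 0.00. The 8 cytosolic class II genes had a median of 0.84 in TPM and of 0.25 rescaled, with 5 called higher and none lower. Among mitochondrial enzymes the order was the opposite, with medians of 0.91 for the 9 class I and 0.67 for the 6 class II genes in TPM, and of 0.36 and 0.13 rescaled. The 6 cytosolic genes with no -m gene of the same name had a median of 0.84, and the 12 with such a gene one of 0.63. GluProRS is among the 6 by its name, although it was paired above with GluRS-m and ProRS-m. None of these subsets was tested against another, and after rescaling 35.6% of all genes tested were higher and 35.8% lower.

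In mammals 8 of these enzymes form a multi-synthetase complex with 3 scaffold proteins. The fly genes of those 8 enzymes, which include LysRS, MetRS, ArgRS and GluProRS, had a median TPM difference of 0.76, and the other 10 cytosolic genes one of 0.65. After rescaling 4 of the 8 were called higher and none lower, and of the other 10 genes 4 were called higher and 2 lower, beside 35.6% higher and 35.8% lower over all genes tested. The scaffold genes AIMP1, AIMP2 and AIMP3 all rose in TPM, AIMP1 from 20.3 ± 1.05 to 47.1 ± 0.464 TPM, a log2 difference of 1.18 (adjusted p = 8.678e-09), and 0.59 rescaled. AIMP2 rose by 0.77, and 0.18 rescaled. AIMP3 rose by 0.52 and was at -0.06 and not called after rescaling.

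AIMP1 belonged to a list of 9 synthetase subunits and partners with symbols of another form. All 9 rose in TPM with a median of 0.82, and 7 were called higher after rescaling, beside 66.9% and 35.6% of all genes tested. The subunits of cytosolic phenylalanyl-tRNA synthetase moved alike, alpha-PheRS from 23.4 ± 1.43 to 48.3 ± 2.45 TPM (log2 difference 1.02, adjusted p = 5.909e-08) and beta-PheRS from 17.3 ± 0.807 to 37.0 ± 2.13 TPM (log2 difference 1.05, adjusted p = 3.994e-08). Their rescaled differences were 0.44 and 0.475. Both rose by more than the single-chain mitochondrial enzyme PheRS-m, at 0.63, a difference that was not tested. Slimp, a mitochondrial relative of seryl-tRNA synthetase that does not charge tRNA in the fly, rose by 1.12, and 0.58 rescaled. GatA, GatB and GatC, the subunits of the amidotransferase that makes glutaminyl-tRNA in mitochondria, rose by 0.82, 0.56 and 0.75. Rescaled they were at 0.28, 0.024 and 0.23, and GatB was not called.

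Genes acting before and after charging were described by lists, none of them tested as a set. Beside these lists stand the shares of all genes tested, 66.9% higher and 16.3% lower in TPM, and 35.6% and 35.8% rescaled. Of 11 genes of tRNA processing and modification found, 10 were called higher in TPM and none lower, with a median of 1.00, and after rescaling 8 were higher and 1, scu, a component of mitochondrial RNase P, was lower. The smallest adjusted p was that of rswl, another component of mitochondrial RNase P, which rose from 6.78 ± 0.464 to 15.3 ± 1.03 TPM, a log2 difference of 1.06 (adjusted p = 7.83e-08), and 0.52 rescaled. RtcB, the tRNA ligase, and RNaseZ, which trims the 3' end of precursor tRNAs, rose by 1.00 each, and by 0.43 and 0.48 rescaled.

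All 8 mitochondrial elongation, initiation and release factors found were higher in TPM, with a median of 0.71, and 4 stayed higher after rescaling. The factors mEFTs, mEFTu1 and mEFG1 rose by 1.15, 1.07 and 1.10, and by 0.57, 0.48 and 0.57 rescaled. Of 8 cytosolic elongation and release factors, 5 were called higher and 2 lower in TPM, with a median of 0.55. After rescaling 3 of these 8 were higher and 3 lower. Of all genes tested, 66.9% were higher and 16.3% lower in TPM, and 35.6% and 35.8% after rescaling. The release factors eRF3 and eRF1 rose by 1.07 and 0.85, and eEF1delta, an exchange factor subunit, by 0.86, with rescaled differences of 0.47, 0.25 and 0.26. In contrast, eEF1alpha1, the abundant factor that carries charged tRNA to the ribosome, fell from 3580 ± 289 to 3129 ± 115.2 TPM, a log2 difference of -0.19 with overlapping groups (adjusted p = 0.01889). Rescaled, its difference was -0.79 (adjusted p = 9.439e-07).

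Ribosomal protein genes separated the cytosol from mitochondria more than the synthetase genes did in their medians. All 73 mitochondrial ribosomal protein genes were called higher in TPM, with a median of 1.00, and 65 were higher and 3 lower after rescaling, with a median of 0.43. Of 84 cytosolic ribosomal protein genes tested, 77 were higher and 2 lower in TPM with a median of 0.31, and 1 was higher and 68 lower after rescaling, with a median of -0.29. The synthetase medians lay between these, at 0.10 rescaled for the cytosolic and 0.32 for the mitochondrial enzymes. Of 13 mitochondrially encoded genes tested, which the mitochondrial synthetases serve, 5 were higher and 2 lower in TPM. After rescaling none of them was higher and 6 were lower. To set beside these counts, 66.9% of all genes tested were higher and 16.3% lower in TPM, and 35.6% and 35.8% rescaled.

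**Figure D4:**
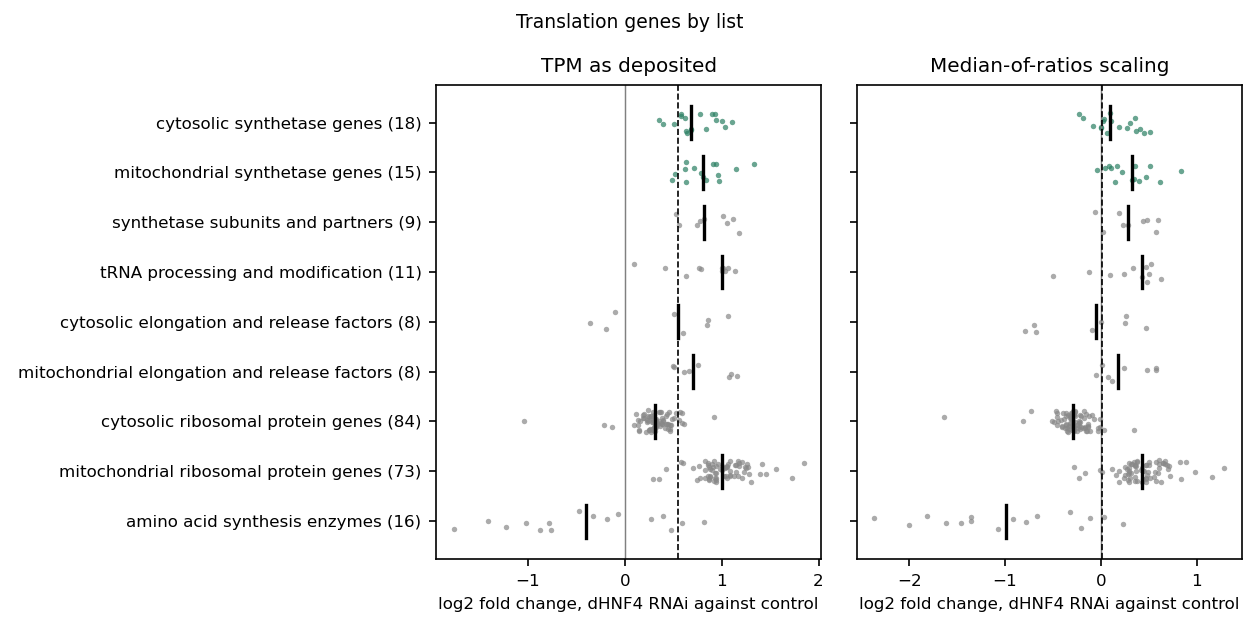
The plot shows the log2 difference, dHNF4 RNAi minus control, of each tested gene of the synthetase family and of the translation and amino acid lists, in TPM and after median-of-ratios scaling, with the median of each list. The mitochondrial ribosomal protein genes have a median of 0.43 after rescaling and the cytosolic ones of -0.29, with the synthetase medians between them.

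Uncharged tRNA activates Gcn2, which phosphorylates eIF2alpha and so favours translation of crc, the fly ATF4, a transcription factor whose mammalian counterpart acts on several cytosolic synthetase genes. Of 8 genes listed for this response, 5 were higher and 3 lower in TPM, and 1 was higher and 3 lower after rescaling. The list includes the kinase gene PEK, which does not sense uncharged tRNA. PEK was higher by 0.52 in TPM, and was at -0.06 and not called after rescaling. Shares higher and lower over all genes tested were 66.9% and 16.3% in TPM, and 35.6% and 35.8% rescaled. eIF2alpha rose from 70.4 ± 4.45 to 136.8 ± 4.18 TPM, a log2 difference of 0.95 (adjusted p = 6.202e-08), and 0.36 rescaled. crc rose from 303.4 ± 26.9 to 447.7 ± 23.5 TPM, by 0.56, and was at -0.04 and not called after rescaling. Thor, the 4E-BP translation repressor and a crc target in the fly, fell from 1293 ± 69.0 to 658 ± 139 TPM (log2 difference -0.996, adjusted p = 1.166e-05), and was at -1.60 rescaled. The count of 3 lower genes in TPM was 2 without control 2 or 3 or RNAi library 2, 4 or 5.

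The 16 genes listed under amino acid synthesis went against the synthetases in number. In TPM 5 were higher and 10 lower, and after rescaling none was higher and 12 were lower. The list includes Gdh, Got1, Got2 and CG1640, which are not genes of synthesis alone. Their TPM differences were -1.01, 0.27, 0.40 and -0.47. For all genes tested the shares higher and lower were 66.9% and 16.3% in TPM, and 35.6% and 35.8% rescaled. Eip55E, the cystathionine gamma-lyase that makes cysteine, fell from 354.7 ± 46.1 to 103 ± 6.05 TPM (log2 difference -1.77, adjusted p = 2.509e-08), and was at -2.36 rescaled. P5cr-2 and P5cr, which make proline, had log2 differences of -1.41 and -0.78 in TPM, and of -2.004 and -1.36 rescaled. AsnS, the asparagine synthetase and also on the list of the amino acid response, had control values that varied widely, at 64.9 ± 39.7 TPM against 32.3 ± 10.6 TPM in RNAi libraries, with overlap and an adjusted p of 0.03205 in TPM and of 0.001714 rescaled. The count of 10 lower genes in TPM ranged from 8 to 10 with each library left out.

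The authors' deposited table gave all 33 members, 32 with a log2 fold change above 0, where 57% of all its genes were above 0, and ValRS at -0.07. From the authors' deposited table, 6 members (18.2%) passed as higher after Benjamini-Hochberg adjustment computed here and none as lower, close to the 15% of all its genes that passed as higher, with 13.7% lower. These were GlyRS, LysRS, MetRS-m, TrpRS-m, AsnRS-m and ArgRS-m, at 0.64, 0.60, 1.41, 0.92, 1.10 and 0.65 in the authors' deposited table. The median log2 fold change in the authors' deposited table was 0.26 for cytosolic members, 0.55 for mitochondrial members and 0.13 for all its genes.

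Control 2 stood apart from the other controls in the cytosolic enzymes. It was the highest control for 17 of 18 cytosolic and 3 of 15 mitochondrial members in TPM, and for 57.1% of all genes tested. After rescaling it was the highest for 3 cytosolic members and no mitochondrial one. All 33 members were still called higher in TPM without it, with medians of 0.73 and 0.83 for the cytosolic and mitochondrial genes.

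The libraries are of whole midguts, so a change in the share of a cell type and a change in RNA per cell cannot be told apart. All 9 progenitor markers, such as esg and Dl, were called higher on both scales, and their summed level was 56.8 to 98.9 TPM in controls and 269.7 to 284.8 TPM in RNAi libraries. Of 8 enterocyte markers 3 were higher and 2 lower in TPM, and 3 higher and 5 lower rescaled, with sums of 45160 to 52700 TPM and 40910 to 48770 TPM. Of 12 enteroendocrine markers 5 were higher and 4 lower in TPM, and 1 higher and 7 lower rescaled, with sums of 647 to 791 TPM and 658 to 722 TPM. Of 10 visceral muscle markers 1 was higher and 4 lower in TPM, and none higher and 9 lower rescaled, with sums of 1950 to 2247 TPM and 1736 to 2071 TPM. Fat body markers, 4 of 5 tested lower on both scales, summed to 239 to 365 TPM in controls and 131 to 167 TPM in RNAi libraries. Most of that sum was the 1 gene to, at 302.2 ± 53.9 TPM in controls and 145.8 ± 12.9 TPM in RNAi libraries. The next highest control mean among them was 10.2 TPM, for apolpp. Haemocyte markers summed to at most 13.0 TPM and testis markers to at most 2.44 TPM, with Mst98Cb at 0 in all libraries, and Malpighian tubule markers overlapped between groups. Beside these marker counts, 66.9% of all genes tested were higher and 16.3% lower in TPM, and 35.6% and 35.8% rescaled. The part of these markers in the difference of the synthetase genes was not tested.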

How the data were processed

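Per the labels, the library kit was the stranded Illumina TruSeq. Groups and replicate numbers came from the sample labels. The deposited TPM table gives 1 value per gene and library, with totals of 975327 to 982443. Per the submitters' processing notes, FastQC, Trim Galore, kallisto, edgeR and the build BDGP6 were used, with no versions. Which tool made which table, and whether strand was used in counting, is not given in the sources used here. A second deposited table holds the authors' own log2 fold changes and p-values, used only where named. Both tables carry RUVSeq in their deposited name, and whether or how it was applied to either is not stated. TPM keeps no sequencing depth, so depth is unknown and no counting interval was computed.

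TPM were analysed as log2(TPM + 1) with limma 3.58.1 in R 4.3.3 (trend fit, moderated two-sided test, no covariate) over the 8784 genes that averaged 1 TPM or more. The call threshold was 0.05 on the Benjamini-Hochberg adjusted p over all genes tested, and the script was tested on simulated data. Median-of-ratios factors came from 8706 tested genes above 0 in all libraries. Other pseudocounts, filters, scalings, a replicate block and leaving out each library were tried. Coordinates are those of the reference annotation (BDGP6.54), in which 14263 of 14310 identifiers were found.

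Members and lists were chosen with earlier results of these data known. Values in every library are given for Hnf4, the 4 cytosolic and 4 mitochondrial members with the largest and the 2 of each kind with the smallest log2 difference, GluProRS, and the members of lowest and highest mean TPM. From each list up to 3 called genes with the smallest adjusted p were named, and other genes were named for contrast after their values were seen. The names eIF5A, mEFG2, Trm7-32 and Trm7-34 were not matched in the table. The labels call the libraries biological replicates.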

Additional observations from a re-analysis of the deposited data

Results flagged for a closer look

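SerRS, the cytosolic serine enzyme, had 83.4 TPM in control 2, while the other 4 controls lay between 64.5 and 68.0 TPM. The gap to the nearest control was 0.811 of the whole range of the controls, above the Dixon critical value for 5 samples. It was the only one of 66 gene and group combinations, 33 genes in 2 groups, to stand out in this way. Chance alone flags about 1 in 20 such combinations, so 1 in 66 is no more than chance gives. Control 2 was also the highest control for 57.1% of all genes tested in TPM.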

How the results depend on the processing

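In TPM all 33 members remained called higher with each library left out, under every pseudocount, with no filter and with a robust fit, and a filter at 5 TPM left 30 to test, all called higher. The median difference of the mitochondrial members moved with the pseudocount, from 0.95 at 0.1 to 0.56 at 5, where it was below the cytosolic median of 0.62. The count of all genes called was 7307, and 7170 to 7337 with each library left out. Median-of-ratios scaling changed most: members called higher went from 33 to 18 and cytosolic ones from 18 to 8. It also took the genes called higher to 3 of cytosolic elongation and release factors, 4 of the mitochondrial factors, 1 of the Gcn2 list, 0 of amino acid synthesis and 1 of cytosolic ribosomal proteins. The sign turned on that scale for IleRS (-0.0011), TyrRS (-0.080), ValRS (-0.18), CysRS (-0.22) and CysRS-m (-0.044). With each library left out on that scale, added after seeing the data, 16 to 19 members were called higher, 8 to 9 cytosolic and 8 to 10 mitochondrial, and TrpRS (-0.033 to 0.027), IleRS (-0.026 to 0.031), CysRS-m (-0.11 to 0.019) and PheRS-m (-0.018 to 0.083) crossed 0. Pairs with a lower ratio numbered 3 to 5, with 5 when RNAi library 3 or 5 was left out. Genes called lower in TPM on the Gcn2 list went from 3 to 2, and those of amino acid synthesis from 10 to 9, with no filter or with a robust fit. The cause of these shifts was not tested. Replicate numbers did not pair the libraries (correlations of deviations from -0.331 to 0.358). With the replicate block 33 members and 7249 genes were called in TPM, and 17 members after rescaling, SerRS-m being lost (adjusted p = 0.07222). Depth is unknown, which limits most the genes near 1 TPM.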

Other observations

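TyrRS and GluRS-m lie next to each other on 3L, both on the minus strand, with 171 bases between their annotated ends. The cytosolic gene TyrRS rose by 0.51 and the mitochondrial gene GluRS-m by 0.96 in TPM, and after rescaling they were at -0.08 and 0.51. Among the 33 members, 17 overlap another annotated gene. AspRS shares 3137 bases with Nmda1 and ArgRS-m shares 874 bases with the mitochondrial ribosomal protein gene mRpS9, in each case on the opposite strand. SerRS-m shares 2552 bases with CG6218 on the opposite strand, and HisRS shares 5018 bases with Bx on the same strand. How reads of such overlaps were assigned was not tested.

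The 33 genes are spread over 3L (10 genes), 2R (8), 2L (6), 3R (6) and X (3). The longest annotated coding sequence had a median of 744 residues among cytosolic and 582 among mitochondrial members.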
